A study of Mus musculus with 12 samples.

Results

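Pluripotent stem cells and neural stem cells both divide in culture, and here their transcripts were compared on 6 of the 12 mouse gene expression arrays of the study. The pluripotent side pooled 4 arrays of induced pluripotent stem cells (iPSC), 2 from astrocytes and 2 from mouse embryonic fibroblasts (MEFs). The neural side was the 2 arrays of neural stem cells (NSC). All arrays were chosen by their sample titles alone. Each group had 2 arrays, which the design text calls biological replicates.

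The NSC were prepared from the telencephalon of embryos at embryonic day 12.5 to 14.5 of Sox1-GFP reporter mice (Sox1+/-), in which the Sox1 gene carries a green fluorescent protein reporter. They grew in DMEM/F12 with N2 supplement and with EGF and basic FGF, each at 20 ng/ml, without serum or feeder cells named in the labels. The astrocyte iPSC came from Sox1-GFP astrocytes of the same Sox1+/- genotype. These astrocytes, sorted as GFP-negative, had received retroviruses with Oct4 (gene Pou5f1), Klf4, Sox2 and c-Myc. The fibroblast iPSC were the established line iPS-MEF-Ng-20D-17, which carries a Nanog-GFP-IRES-Puro reporter. This line is 1 line, so its 2 arrays hold no spread between clones, and the labels do not say how many clones gave the astrocyte iPSC. Both kinds of iPSC grew on mitomycin C-treated MEF feeders in embryonic stem cell medium with 1500 U/ml LIF and 15% serum or serum replacement. Medium and feeders therefore differ together with cell type between the iPSC and NSC sides and cannot be told apart from it. Astrocytes cultured from postnatal day 3 cortex (Sox1+/-, 3 arrays, GFP-negative, in 10% serum) served below as a common reference outside the stem cell states.

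As background, mouse pluripotent cells are held in their state by a network of transcription factors around Oct4, Nanog and Sox2, and LIF sustains them through STAT3. NSC of the embryonic telencephalon are radial glia-like cells that depend on FGF and EGF in culture and rely on Sox2, Pax6, Olig2, Nuclear factor I proteins and Notch signals. Dividing cells of any lineage copy DNA with the same replication machinery and separate chromosomes with the same mitotic machinery, much of it under E2F and DREAM-MuvB control. Pluripotent cells are known for a short G1 phase with high cyclin E activity, whereas many somatic cells enter S phase through D cyclins and the retinoblastoma (Rb) proteins.

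Promoters of the shared machinery and of the lineage regulators are shown first, because cell cycle genes are known to share E2F and related promoter elements. Each is the 250 bases upstream of the RefSeq transcription start (GRCm38.p6), written 5′ to 3′ on the gene's strand. Capitals mark matches, on either strand, to the E2F letters TTTCCCGC, TTTGGCGC, TTTCGCGC and TTTGCCGC or to the letters TTTGAA of the cell cycle homology region (CHR), an element of late cell cycle promoters. The region of Mcm7, a subunit of the replicative helicase, is chr5:138171884-138172133 (minus strand), that of Top2a, which untangles chromosomes, is chr11:99024190-99024439 (minus strand), and that of Orc1, a subunit of the origin recognition complex, is chr4:108579204-108579453 (plus strand). The Oct4 gene Pou5f1 is shown from chr17:35505782-35506031 (plus strand) and the neural regulator Olig2 from chr16:91225300-91225549 (plus strand).
Mcm7: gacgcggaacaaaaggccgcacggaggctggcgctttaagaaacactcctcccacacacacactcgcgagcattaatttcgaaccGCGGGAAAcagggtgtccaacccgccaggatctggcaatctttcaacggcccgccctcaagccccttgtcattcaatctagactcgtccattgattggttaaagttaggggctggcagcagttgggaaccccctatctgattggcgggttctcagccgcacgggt
Top2a: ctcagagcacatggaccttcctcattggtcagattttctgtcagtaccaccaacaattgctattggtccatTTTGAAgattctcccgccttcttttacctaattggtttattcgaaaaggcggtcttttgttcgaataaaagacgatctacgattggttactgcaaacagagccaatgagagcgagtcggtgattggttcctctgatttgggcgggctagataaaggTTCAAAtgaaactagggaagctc
Orc1: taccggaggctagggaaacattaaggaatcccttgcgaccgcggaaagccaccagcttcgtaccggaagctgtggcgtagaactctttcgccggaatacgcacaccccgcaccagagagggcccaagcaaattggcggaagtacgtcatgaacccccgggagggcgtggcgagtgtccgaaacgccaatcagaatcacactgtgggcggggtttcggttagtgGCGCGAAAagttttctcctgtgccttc
Pou5f1: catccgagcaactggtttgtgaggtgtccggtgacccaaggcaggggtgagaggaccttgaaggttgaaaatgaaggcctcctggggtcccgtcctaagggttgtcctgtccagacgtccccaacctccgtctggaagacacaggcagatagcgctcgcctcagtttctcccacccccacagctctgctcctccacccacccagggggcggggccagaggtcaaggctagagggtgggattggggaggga
Olig2: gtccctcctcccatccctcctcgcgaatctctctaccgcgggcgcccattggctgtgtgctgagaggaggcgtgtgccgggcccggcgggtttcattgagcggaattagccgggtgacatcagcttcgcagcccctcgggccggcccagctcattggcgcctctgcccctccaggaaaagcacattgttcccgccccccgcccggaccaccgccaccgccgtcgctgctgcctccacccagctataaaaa
Mcm7 held GCGGGAAA starting 165 bases upstream of its start, and Orc1 held GCGCGAAA starting 27 bases upstream. Top2a held TTTGAA at 179 bases and TTCAAA at 23 bases upstream. Neither set of letters occurred in the windows of Pou5f1 and Olig2. Across all 15614 measured genes with a promoter in the table, 2.55% held an E2F match, against 20 of 123 genes (16.3%) of the cell cycle lists used below and 0 of 22 neural stem cell transcription factors. Within the cell cycle lists the share ran from 4.55% of mitosis genes to 30.4% of the cyclin list. Of the lineage lists, the epithelial genes (12.5%), the germline genes (8.33%) and the pluripotency transcription factors (5.88%) were also above the share of all promoters. So were, among other lists, the nucleolus and ribosome biogenesis genes (17.4%) and the DNA methylation and Polycomb genes (13.6%). The CHR letters, which are shorter, occurred in 13.7% of all promoters, in 15 of 44 mitosis genes (34.1%) and in 4 of 42 DNA replication genes (9.52%). They also occurred in 8 of 23 genes of the cyclin list. Outside the cell cycle the share varied widely, with 4 of 12 pluripotency effectors, 4 of 10 fibroblast genes, 2 of 6 erythroid genes and 0 of 12 Notch pathway genes. These matches describe letters in a window and were searched after the expression results were known.

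All values below, except sums called intensity, are log2 of the deposited RMA intensity, a scale on which 1 unit is a doubling. A gene was called when its limma adjusted p (Benjamini-Hochberg over all 19938 genes) was under 0.05 and its log2 fold change, the iPSC mean minus the NSC mean, was at least 1 in size. By this rule 951 genes (4.77%) were higher in iPSC and 1489 (7.47%) were lower. Among them, 67 were higher and 102 lower by at least 3 on the log2 scale. In 8 of the 2440 called genes the iPSC and NSC arrays overlapped. Without the fold limit, at adjusted p alone, 4844 genes were higher (24.3%) and 4358 lower (21.9%), so the excess of lower genes held only for the larger differences. The array medians ranged from 97.9 to 104.9 on the intensity scale, arrays of a group correlated at 0.9911 to 0.9959, and arrays of different iPSC lines at 0.9863 to 0.9879. Arrays have no read depth, and the small number of arrays is 1 of the limits on the precision. In these bulk samples, fewer cells of a type and less RNA per cell cannot be told apart.

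The labels were checked with marker genes. Of the 6 markers of pluripotent cells (Pou5f1, Nanog, Zfp42, Dppa5a, Tdgf1 and Esrrb), every member was higher on all 4 iPSC arrays than on both NSC arrays and was called. Of the 6 NSC markers, Fabp7, Olig2, Nes, Nr2e1 and Pax6 were called lower in iPSC. Sox1, the gene of the reporter, did not separate the groups by the call: it read 8.01, 7.98, 7.98 and 7.99 in iPSC and 8.20 and 8.32 in NSC. The GFP-negative astrocytes read 7.97, 8.25 and 8.17, and day 6 cells of reprogramming 8.40, 8.53 and 8.27. The Sox1 signal thus did not mark NSC above these groups either.

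The pluripotency transcription factors made up the first lineage-specific group: 20 of 21 measured members were higher in iPSC and none was lower, with a median log2 fold change of 2.29 against 0.05 over all genes. Pou5f1, the core POU factor, read 11.94 and 11.96 in astrocyte iPSC, just over 12 and 11.92 in fibroblast iPSC, and 5.54 and 5.40 in NSC. The difference was 6.49 (SE 0.17, adjusted p = 2.31e-10), or 89.7-fold, and the 4 iPSC arrays lay within a narrow band although they came from different lines. Utf1, a chromatin-bound factor of embryonic stem cells, read 11.60, 10.83, 11.74 and 11.81 in iPSC and 5.81 and 6.08 in NSC, with a difference of 5.55 (SE 0.18, adjusted p = 9.77e-10). The second astrocyte iPSC array was the lowest of the 4. Nr0b1 (Dax1), an orphan receptor that binds Oct4, differed by 4.95 (SE 0.13, adjusted p = 2.5e-10). Nanog, the homeodomain factor that sustains self-renewal, read 11.24, 11.31, 11.20 and 10.96 against 6.38 and 6.51, a difference of 4.73 (SE 0.14, adjusted p = 5.06e-10). Klf4, also a delivered factor, read 8.07, 8.26, 9.03 and 8.68 in iPSC and 6.53 and 6.62 in NSC, a difference of 1.93 (SE 0.15, adjusted p = 7.36e-07). An array signal does not tell the endogenous Klf4, Pou5f1, Sox2 or Myc transcript from one of the retrovirus where their sequences are shared.

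Sox2 was the only member of that list that was not called. It read 10.75, 10.77, 10.71 and 10.64 in iPSC and 11.05 and 10.95 in NSC. Its difference of -0.28 (SE 0.08, 95% limma interval -0.45 to -0.11) passed the adjusted p alone (0.00986) but not the fold limit, so this factor of both networks was bright in both cell types and slightly lower in iPSC.

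Downstream genes of the pluripotent state showed the largest differences as a group. Of 22 measured effectors, 21 were higher in iPSC and 1 was lower, with a median of 3.19. Tdgf1 (Cripto), the Nodal co-receptor, read 11.96, 11.69, 12.30 and 12.21 in iPSC and 5.66 and 5.43 in NSC. Its difference of 6.49 (SE 0.13, adjusted p = 4.2e-11) was the largest positive value among the named genes. Dppa5a, an RNA-binding protein of the early embryo, differed by 5.45 (SE 0.15), and Dppa2, a DNA-binding partner of Dppa4, by 4.76 (SE 0.10) on its brightest probe set and by 3.23 on another. L1td1, an RNA-binding protein derived from a LINE element, read 10.61, 10.70, 10.55 and 10.56 against 6.07 and 5.77. The exception was Fut9, the fucosyltransferase that makes the SSEA-1 (Lewis X) epitope, which both embryonic stem cells and neural precursors are known to display. It read 7.13, 6.76, 6.90 and 6.55 in iPSC and 7.96 and 8.35 in NSC, a difference of -1.32 (SE 0.14, adjusted p = 1.11e-05).

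**Figure D1:**
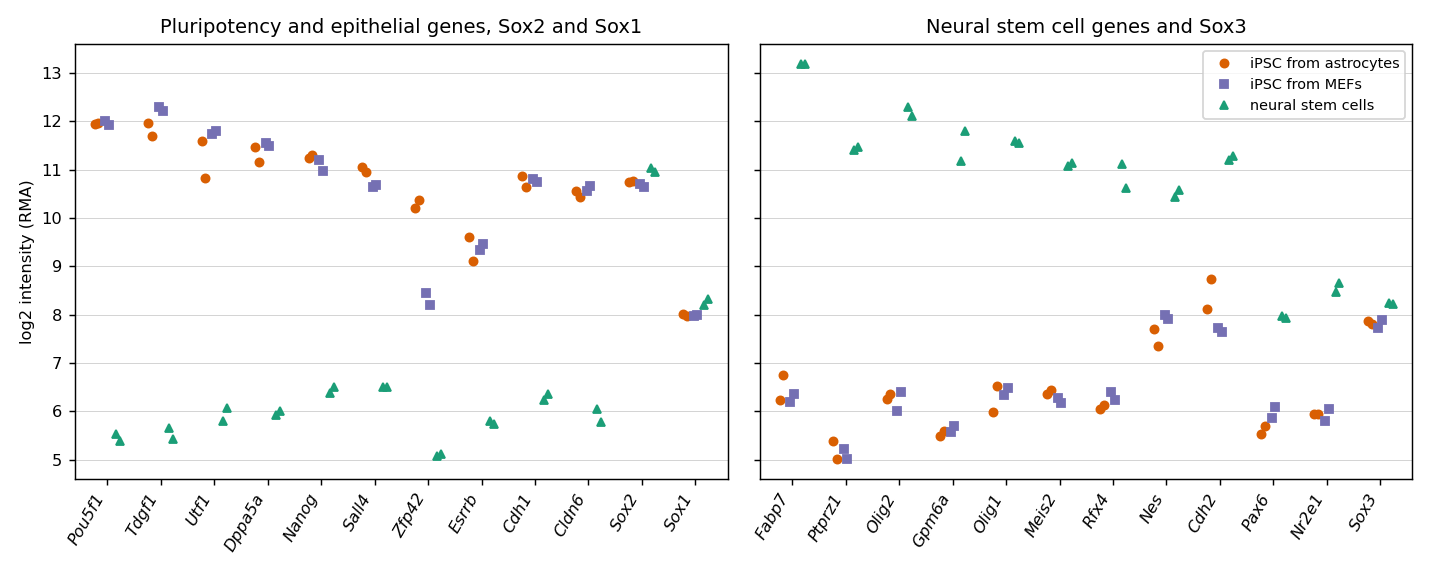
Log2 RMA intensity (y axis) of pluripotency and epithelial genes with Sox2 and Sox1 (left) and of neural stem cell genes with Sox3 (right) on each array, with circles for astrocyte iPSC, squares for fibroblast iPSC and triangles for NSC (n = 2 each). Pou5f1 sits at about 12 on the iPSC arrays and at 5.40 and 5.54 on the NSC arrays, Fabp7 shows the opposite order, and Sox2, Sox1 and Sox3 lie close together in both cell types.

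Beyond the lists, the 10 largest positive differences included Trh, the gene of thyrotropin-releasing hormone, and 3 zinc finger genes. Trh read 11.32, 11.21, 11.18 and 11.17 in iPSC and 5.67 and 5.98 in NSC, a difference of 5.39 (SE 0.18, adjusted p = 1.25e-09). Zfp640 differed by 5.28 (SE 0.07), Zfp979 by 5.16 (SE 0.64) and Zfp980 by 5.03 (SE 0.16). The small SE of Zfp640 leaves out a difference of 1.08 between the iPSC lines. The error of Zfp979 was wide because its arrays spread within groups, at 5.74 and 4.58 in NSC, 6.50, 6.44 and 5.10 in astrocytes, and 8.17, 8.38 and 5.83 in the day 6 cells of reprogramming that share the fit. Zinc finger genes of this kind lie in families of near-identical copies, so the signal of each is uncertain in its source.

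Genes of the naive and primed states and of the germline were higher in fewer cases and depended on the iPSC line. Of 11 naive and primed genes, 7 were higher and none was lower (median 1.30), and 5 also differed between the 2 iPSC lines. The count of higher genes was 4 for fibroblast iPSC alone, and 4 when the iPSC were 1 group of 4 on the 6 arrays or the line was a random block. Krt18, a keratin, read 8.84, 9.04, 9.28 and 8.73 in iPSC and 6.48 and 6.39 in NSC, alike in both lines. Fgf5, a marker of the primed epiblast, read 8.99 and 9.14 in astrocyte iPSC, 7.72 and 7.35 in fibroblast iPSC and 6.30 on both NSC arrays, so each line was above NSC and the astrocyte line was higher. Cer1, a secreted inhibitor of Nodal and BMP, read 8.29 and 8.50 in astrocyte iPSC but 5.62 and 5.79 in fibroblast iPSC, next to 5.45 and 5.74 in NSC. Its pooled difference of 1.45 (SE 0.11) was 0.11 for fibroblast iPSC alone, which was not called. Of 13 germline genes, 6 were higher and 1 was lower (median 1.00), but 2 were higher for fibroblast iPSC alone. Over all genes 4.77% were higher and 7.47% lower. Tdrd12 and Sycp3 lost their calls with the line as a random block. Mael, a piRNA pathway protein, read 8.48, 7.58, 7.31 and 7.08 in iPSC and 4.89 and 4.91 in NSC. Tdrkh, a Tudor protein of the same pathway, had the opposite order, at 5.65, 5.57, 5.55 and 5.48 in iPSC and 7.97 and 8.45 in NSC, with a difference of -2.65 (SE 0.12, adjusted p = 1.06e-08).

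Epithelial genes went with the pluripotent side. Of 24 measured members 20 were higher in iPSC and none was lower, with a median of 2.04, and no member was called between the iPSC lines. Cldn6, a tight junction claudin, read 10.56, 10.43, 10.57 and 10.67 in iPSC and 6.05 and 5.77 in NSC, a difference of 4.64 (SE 0.09, adjusted p = 4.19e-11). Cdh1 (E-cadherin), the adherens junction protein of epithelia, differed by 4.48 (SE 0.11, adjusted p = 1.37e-10). Epcam, an epithelial adhesion molecule, differed by 4.27 (SE 0.07), and Esrp1, which directs epithelial splicing, by 3.97 (SE 0.12). On all 4 genes the lowest iPSC array was above the higher NSC array, and arrays stood apart in all but 8 of the 2440 called genes.

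The neural stem cell transcription factors formed the opposite group: 21 of 28 were lower in iPSC and none was higher, with a median of -2.34. Olig2, the bHLH factor of ventral and cultured neural progenitors, read 6.25, 6.35, 6.01 and 6.40 in iPSC and 12.30 and 12.12 in NSC. The difference was -5.95 (SE 0.16, adjusted p = 3.27e-10). Olig1, its neighbour and relative, differed by -5.23 (SE 0.17). Meis2, a TALE homeodomain factor, read 6.36, 6.44, 6.29 and 6.18 against 11.07 and 11.13, a difference of -4.78 (SE 0.07, adjusted p = 1.99e-11). Rfx4, a factor of cilia and dorsal patterning, differed by -4.67 (SE 0.16), and Nfib, a Nuclear factor I protein that drives gliogenesis, by -4.54 (SE 0.13). Nr2e1 (Tlx), an orphan receptor required for NSC self-renewal, read 5.94, 5.94, 5.81 and 6.04 against 8.47 and 8.66. Pax6, a patterning factor of the dorsal telencephalon, read 5.53, 5.70, 5.86 and 6.10 against 7.98 and 7.94. For each of these the iPSC and NSC arrays stood apart without overlap. Cultured astrocytes held many of these genes too: against them 5 of the 28 were higher in NSC and 2 lower, with a median of -0.01. Over all 19938 genes, 1293 (6.49%) were higher in NSC than in astrocytes and 1614 were lower. Meis2 and Nfib averaged 11.30 and 11.84 in astrocytes, Pax6 was lower in NSC than there by -0.90 and Nr2e1 by -1.05, while Olig2 and Rfx4 were higher in NSC by 1.56 and 1.90.

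Radial glia and NSC effectors gave the same count, 21 of 28 lower and none higher, with a median of -2.71. Fabp7, the brain lipid-binding protein of radial glia, read 6.24, 6.75, 6.19 and 6.37 in iPSC and 13.19 on both NSC arrays. At -6.80 (SE 0.14, adjusted p = 4.79e-11) it was the lowest value among all named genes. Ptprz1, a receptor phosphatase for pleiotrophin, read 5.38, 5.03, 5.22 and 5.02 against 11.40 and 11.47, and Ptn, the gene of pleiotrophin itself, read 6.63, 7.17, 6.71 and 6.47 against 11.14 and 11.19. Receptor and ligand were thus both lower in iPSC, by -6.27 (SE 0.15) and -4.42 (SE 0.16). Gpm6a, a neural membrane glycoprotein, differed by -5.90 (SE 0.13), and Nes, the intermediate filament of neural progenitors, by -2.77 (SE 0.15). Gfap, the astrocyte filament, showed the highest value of the list at 0.06 and was dim in both cell types. Astrocytes carried most of these transcripts too: against them 2 of the 28 were higher in NSC and 7 lower, with a median of -0.35. The counts over all 19938 genes were 1293 higher and 1614 lower. Fabp7 averaged 13.11 in astrocytes, Gpm6a 11.73 and Nes 10.67, each close to NSC.

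Neuronal genes were also lower in iPSC, 17 of 23 with none higher and a median of -1.73. Map2, a dendritic microtubule protein, read 6.92, 6.91, 6.86 and 6.84 in iPSC and 11.38 and 11.47 in NSC, a difference of -4.54 (SE 0.08, adjusted p = 3.72e-11). Dcx, the microtubule protein of migrating neuroblasts, read 5.45 to 5.59 in iPSC and 8.84 and 9.97 in NSC, and Syt1, a synaptic vesicle protein, 6.17 to 6.38 against 9.01 and 9.87. The second NSC array was the higher for both, and the summed intensity of the neuronal list was 15533.3 on the first and 22665.3 on the second, against 5318.5 to 6559.0 in iPSC. The part that neurons in the NSC cultures had in the neural differences was not tested. Gria2, an AMPA receptor subunit outside the list, differed by -4.45 (SE 0.11). The oligodendrocyte list was split, with 2 of 13 lower (15.4%), 1 higher (7.69%) and a median of -0.30. Over all genes 7.47% were lower and 4.77% higher. Pdgfra, the receptor of oligodendrocyte precursors, differed by -1.57 (SE 0.19) and the proteoglycan Cspg4 by -1.48 (SE 0.14), while Bmp4, a BMP ligand with roles in many tissues, was higher by 3.31 (SE 0.15). In astrocytes Bmp4 averaged 10.11, above both stem cell types.

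**Figure D2:**
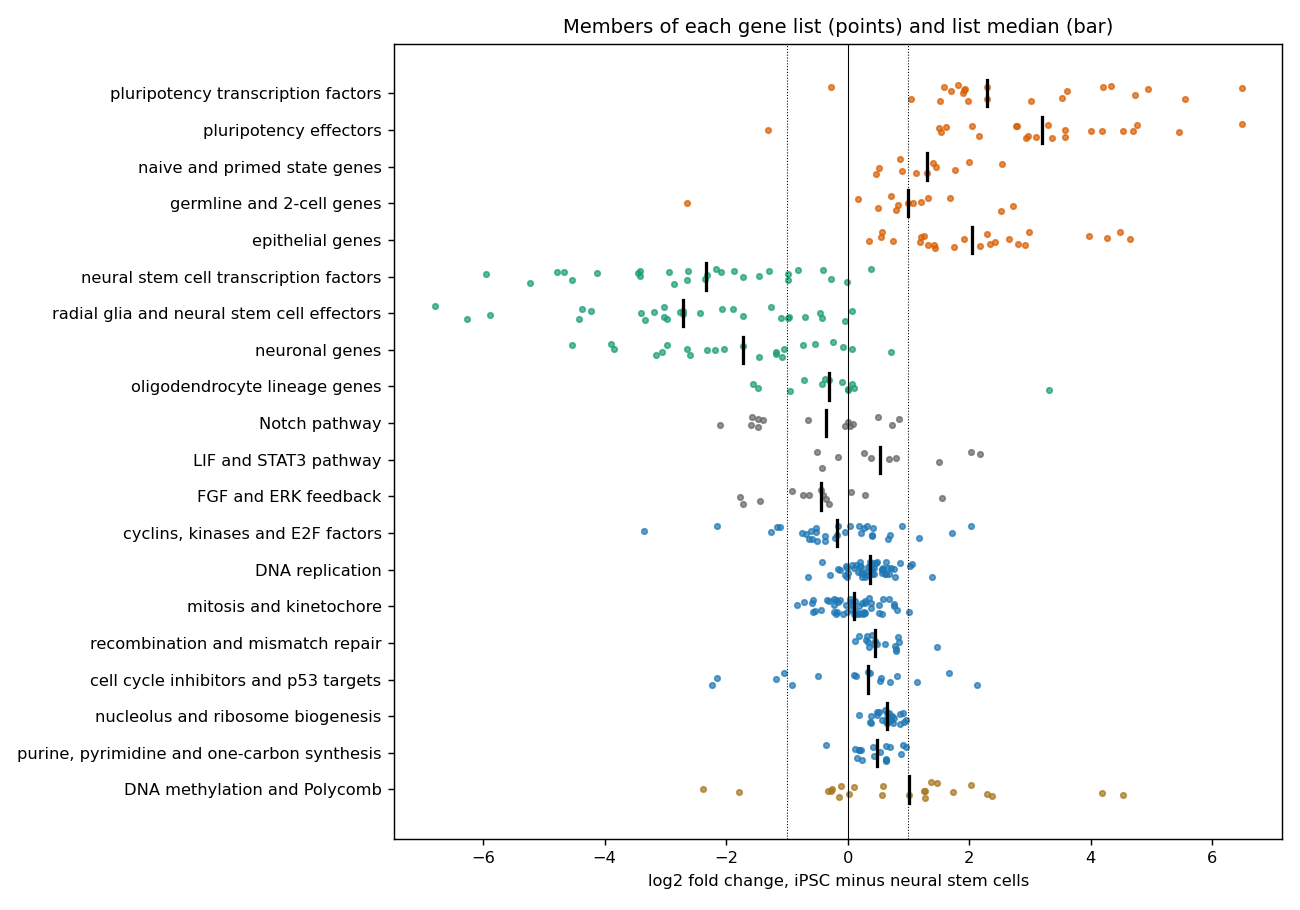
Log2 fold change of iPSC minus NSC (x axis) for every measured member of each gene list (rows), with 1 point per gene and a black bar at the list median; dotted lines mark a log2 fold change of 1 in either direction. Lineage lists have medians from -2.71 to 3.19, whereas the replication, mitosis and repair members mostly lie between the dotted lines.

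The cell cycle genes were mostly within a narrow range of each other in the 2 cell types. The cyclin, replication, mitosis and repair lists together held 151 genes, of which 8 were higher in iPSC and 5 lower, with a median of 0.25. Over all genes the shares were 4.77% and 7.47%, so the count of higher genes was near the general rate. A difference that is not called is not thereby equal, so the limma intervals were used to bound it. Bright genes were taken as those with a mean over the 6 arrays at least 1 above the median over genes (log2 level 7.91 or more). Of 6290 bright genes, 4793 (76.2%) had a 95% interval wholly between -1 and 1. In the cell cycle lists this held for 116 of 136 bright genes (85.3%). The shared range was therefore common among bright genes in general. By list, the share was 89.8% for replication and for mitosis, 77.8% for repair and 72.4% for cyclins, kinases and E2F factors, the last below that of all bright genes.

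DNA replication genes were called higher in iPSC in 3 of 51 cases (5.88%, near the 4.77% of all genes) and lower in none, with a median of 0.37. Pcna, the sliding clamp, read 11.63, 11.65, 11.51 and 11.46 in iPSC and 11.69 and 11.74 in NSC, a difference of -0.16 (SE 0.09, 95% interval -0.35 to 0.04). Rrm2, the regulated subunit of ribonucleotide reductase, read 11.29, 11.15, 11.05 and 11.02 against 11.18 and 11.08, with an interval of -0.36 to 0.36. For Mcm7, whose promoter is shown above, the values were 10.96, 10.67, 10.91 and 10.84 against 10.65 and 10.41, with an interval of -0.03 to 0.65. In these 3 genes the 95% interval left no room for a difference of 1 in either direction. Of the 3 called genes, Orc1 read 8.48, 8.57, 8.47 and 8.22 in iPSC and 7.08 and 7.01 in NSC, a difference of 1.39 (SE 0.08, adjusted p = 1e-07). Cdt1, which loads the helicase at origins, differed by 1.05 (SE 0.13), and Dut, which removes dUTP, by 1.03 (SE 0.13). Both lay close to the fold limit and lost their call without the second NSC array (0.93 and 0.97), as Cdt1 also did without the first astrocyte iPSC array (0.98). Without the second NSC array 1 replication gene was called.

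Mitosis and kinetochore genes had the median nearest to 0 of the 4 cell cycle lists, 0.11, with 1 of 50 called higher and none lower. Top2a read 10.87, 10.82, 10.77 and 10.81 in iPSC and 10.62 and 10.82 in NSC, with an interval of -0.21 to 0.41, although a dimmer probe set of the gene gave -0.44. Plk1, the mitotic polo kinase, read 10.90, 10.68, 10.90 and 10.90 against 10.80 and 10.78, with an interval of -0.32 to 0.42. The iPSC and NSC arrays of both genes overlapped. Mki67, the nuclear antigen of dividing cells, was the lowest of the list: 10.56, 10.66, 10.57 and 10.58 in iPSC and 11.41 and 11.43 in NSC, a difference of -0.83 (SE 0.13, adjusted p = 0.000195). Aurka, a spindle kinase, was on the other side at 0.76 (SE 0.09, adjusted p = 2.67e-05), as was the separase gene Espl1 at 0.81 (SE 0.09, adjusted p = 1.47e-05). None of these 3 reached the fold limit. The called gene was Cdca5 (sororin), which protects sister chromatid cohesion, at 1.01 (SE 0.17). It was not called without the second NSC array (0.77), the first astrocyte iPSC array (0.93) or the first fibroblast iPSC array (0.98), which left no mitosis gene called.

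Recombination and mismatch repair genes all lay above 0, 17 of 17, with a median of 0.45, but only Msh6 was called. Msh6, a DNA mismatch repair protein, read 10.68, 10.62, 10.46 and 10.50 in iPSC and 8.94 and 9.24 in NSC, a difference of 1.48 (SE 0.12, adjusted p = 1.07e-06). Brca2, a protein of homologous recombination, read 8.78, 8.59, 8.44 and 8.35 against 7.58 and 7.82, a difference of 0.83 (SE 0.13, adjusted p = 0.000287). Chek2, a DNA damage kinase, differed by 0.84 (SE 0.10), whereas its counterpart Chek1 read 9.63, 9.48, 9.19 and 9.19 against 9.32 and 9.05, with an interval of -0.06 to 0.43. At adjusted p alone, without the fold limit, 14 of these 17 genes were higher and none was lower. The corresponding counts were 26 higher and 2 lower of 51 replication genes and 11 higher and 7 lower of 50 mitosis genes. The cyclins, kinases and E2F factors leaned the other way, with 8 higher and 15 lower of 33. Among all bright genes, 36.9% were higher and 30.5% lower.

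**Figure D3:**
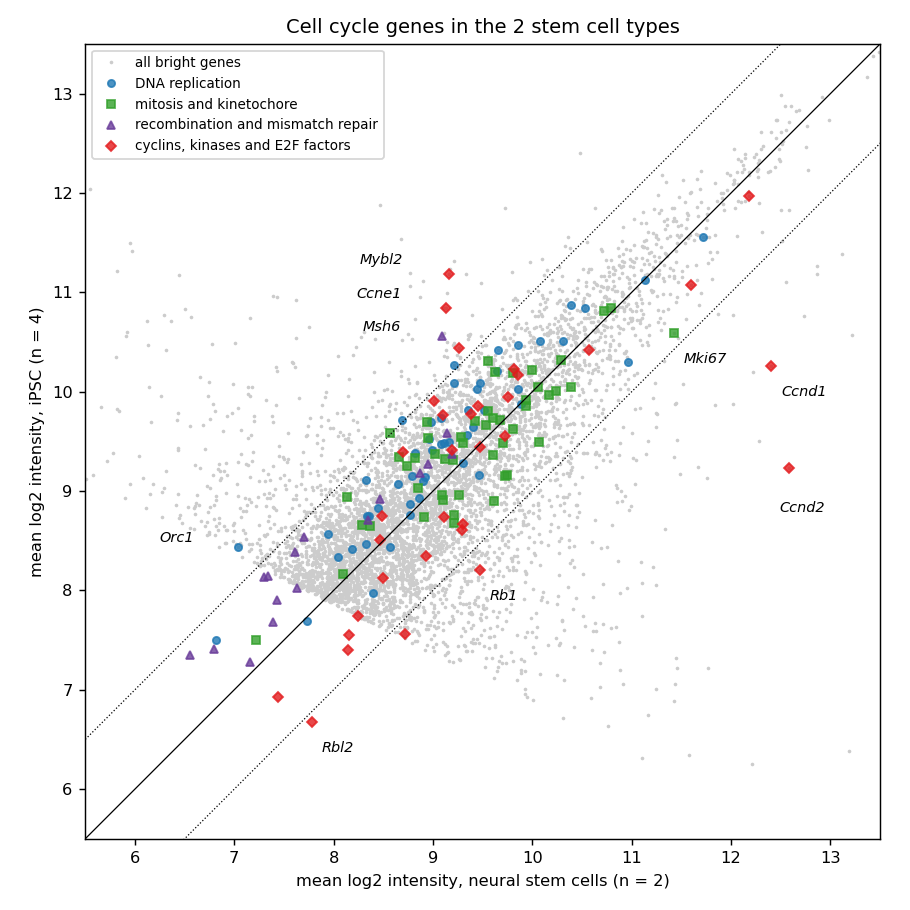
Mean log2 intensity in iPSC (n = 4, y axis) against NSC (n = 2, x axis) for the bright genes (grey) and for the members of the 4 cell cycle lists (coloured symbols); the solid line marks equal levels and the dotted lines a difference of 1. Most cell cycle genes lie between the dotted lines, with Ccnd2, Ccnd1, Rb1 and Rbl2 below and Mybl2, Ccne1, Msh6 and Orc1 above.

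The clearest cell cycle differences lay in G1 control, in the list of cyclins, kinases and E2F factors (5 of 33 lower, 3 higher, median -0.18). Over all genes 7.47% were lower and 4.77% higher. Ccnd2 (cyclin D2) read 8.81, 9.72, 9.25 and 9.16 in iPSC and 12.54 and 12.64 in NSC, a difference of -3.35 (SE 0.18, adjusted p = 5.2e-08), or 10.2-fold. Ccnd1 (cyclin D1) read 10.16, 10.49, 10.24 and 10.13 against 12.39 and 12.42, a difference of -2.15 (SE 0.10, adjusted p = 1.93e-08). The D cyclins activate Cdk4 and Cdk6 against the Rb proteins, and the third D cyclin did not follow them. Ccnd3 read 9.50, 9.31, 9.42 and 9.35 in iPSC and 8.75 and 8.66 in NSC, a difference of 0.69 (SE 0.12, adjusted p = 0.000417), under the fold limit. Cdk4 read 11.99, 11.96, 11.98 and 11.95 against 12.18 and 12.19, with an interval of -0.40 to -0.03, and Cdk6 differed by -0.64 (SE 0.15), so the kinase genes differed less than their cyclin partners.

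The Rb family, the substrates of those kinases, was also lower. Rb1 read 8.21, 8.31, 8.22 and 8.07 in iPSC and 9.48 and 9.47 in NSC, a difference of -1.27 (SE 0.09, adjusted p = 3.45e-07). Rbl1 (p107) differed by -1.16 (SE 0.14) and Rbl2 (p130) by -1.11 (SE 0.09). All 3 family genes were lower on each iPSC array than on each NSC array, and arrays stood apart in all but 8 of the 2440 called genes.

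On the other side stood Ccne1 (cyclin E1), the partner of Cdk2 at S phase entry. It read 10.96, 10.77, 10.86 and 10.80 in iPSC and 9.20 and 9.06 in NSC, a difference of 1.72 (SE 0.11, adjusted p = 1.96e-07). Ccne2 did not share that order, with a difference of -0.60 (SE 0.16, adjusted p = 0.0102). Mybl2 (B-Myb), which activates late cell cycle genes with the MuvB complex, read 11.48, 10.92, 11.12 and 11.21 against 9.27 and 9.05, a difference of 2.02 (SE 0.17, adjusted p = 1.91e-06). E2f4, an E2F that mostly represses, was higher by 1.17 (SE 0.15). Ccna2 (cyclin A2), which acts in S and G2, was bright in both cell types, with a difference of -0.53 (SE 0.16, adjusted p = 0.0167).

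Inhibitors and p53 targets were split, with 4 of 17 lower and 3 higher in iPSC and a median of 0.33. Over all genes 7.47% were lower and 4.77% higher. Ccnd1 is in this list too. Cdkn2c (p18), an inhibitor of Cdk4 and Cdk6, read 5.66, 6.28, 6.05 and 5.81 in iPSC and about 8 and 8.37 in NSC, a difference of -2.24 (SE 0.16, adjusted p = 5.45e-07). Cdkn1b (p27), an inhibitor of Cdk2, differed by -1.18 (SE 0.11) and Ccng2 by -1.06 (SE 0.10). So the lower genes included both D cyclins and inhibitors of the kinases they activate. Among the higher genes, Gadd45a, a stress-induced growth arrest gene, read 9.31, 9.11, 9.44 and 9.20 against 7.10 and 7.17, a difference of 2.13 (SE 0.16, adjusted p = 5.71e-07). Its relative Gadd45b differed by 1.67 (SE 0.10), and Sesn2, a sestrin, by 1.15 (SE 0.13). In astrocytes Gadd45a averaged 9.66 and Gadd45b 10.41, above both stem cell types. Ccng1, another p53 target, was bright in both cell types, with an interval of -0.06 to 0.34.

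Genes of cell growth showed small differences, mostly to the iPSC side. All 26 nucleolus and ribosome biogenesis genes were above 0 and all 26 were higher in iPSC at adjusted p alone, beside 36.9% of bright genes, but none reached the fold limit (median 0.65, range 0.19 to 0.95). Npm1 (nucleophosmin) read 11.66, 11.88, 11.75 and 11.66 in iPSC and 11.01 and 11.03 in NSC, a difference of 0.72 (SE 0.11, adjusted p = 0.000185). Ncl (nucleolin) differed by 0.49 (SE 0.07, adjusted p = 0.00014), and Polr1b, a subunit of RNA polymerase I, by 0.92 (SE 0.07, adjusted p = 9.92e-07). Every member thus passed the adjusted p with a small difference, and 3 members passed the fold limit when the first NSC array was left out. Purine, pyrimidine and one-carbon synthesis genes had a median of 0.48, with 12 of 18 higher and 1 lower at adjusted p alone and none past the fold limit. Gart, an enzyme of purine synthesis, read 11.14, 10.85, 11.04 and 11.02 against 10.09 and 10.02, a difference of 0.95 (SE 0.10, adjusted p = 1.17e-05). Paics, from the same pathway, was the brightest of the list and had an interval of -0.04 to 0.34. Leaving out the second NSC array or the second astrocyte iPSC array put 1 synthesis gene past the fold limit.

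Set beside cultured astrocytes, both stem cell types had higher cell division genes. These 2 comparisons share the 3 astrocyte arrays, so their values are given side by side only. Across all genes, 1293 (6.49%) were called higher in NSC than in astrocytes and 1793 (8.99%) higher in iPSC than in astrocytes. Of the 151 genes of the 4 cell cycle lists, 119 were higher in NSC (median 1.39) and 119 were higher in iPSC (median 1.56). Mcm7 was higher by 2.09 in NSC and by 2.40 in iPSC, Top2a by 1.60 and 1.69, and Plk1 by 1.82 and 1.87. For these genes the step from astrocytes was several times the difference between the stem cells. Ccnd1 and Ccnd2 differed from that order: NSC stood at -0.40 and -0.34 relative to astrocytes and iPSC at -2.55 and -3.69. Mybl2 was higher than in astrocytes by 1.95 in NSC and 3.97 in iPSC, and Ccne1 by 1.84 and 3.56.

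**Figure D4:**
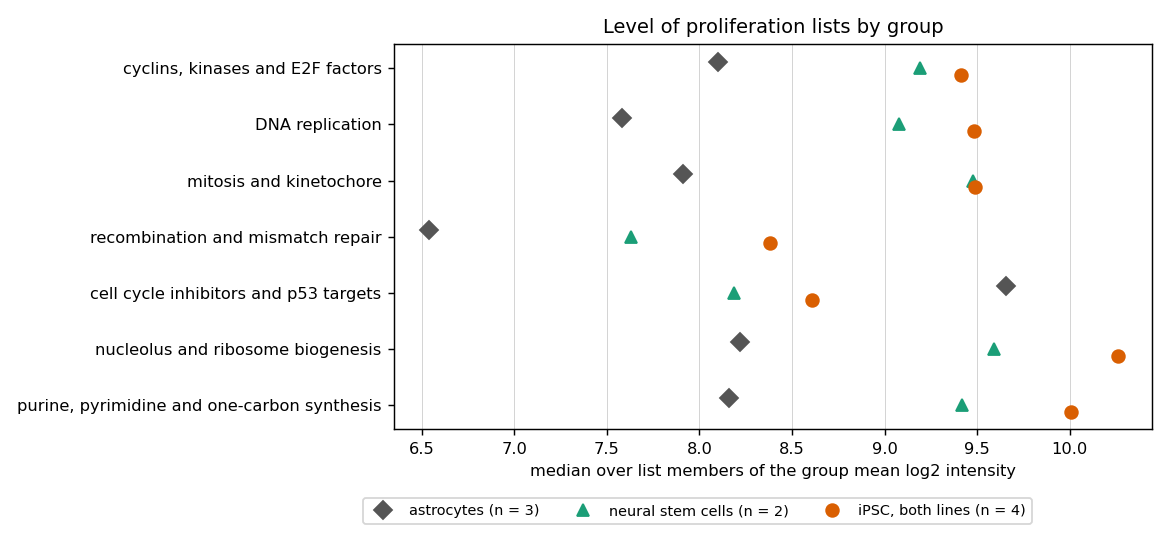
Median over list members of the group mean log2 intensity (x axis) for each proliferation list (rows) in astrocytes (diamonds, n = 3), NSC (triangles, n = 2) and iPSC (circles, n = 4). In the replication list the median is 7.58 in astrocytes, 9.08 in NSC and 9.49 in iPSC, and the mitosis list has nearly the same median in NSC and iPSC.

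Some related genes of 1 family took opposite sides. Of 22 measured pairs, 7 had 1 member called higher and the other called lower. The pairs were picked and not drawn from all gene families, and Pou5f1, Sox2 and Ccnd3 each stand in more than 1. Pairs of other genes were not counted, so the count does not describe gene families in general. Cdh1 was higher by 4.48 and Cdh2 (N-cadherin), the adherens junction protein of neural cells, lower by -3.19 (SE 0.13, adjusted p = 5.5e-09). Cdh2 read 8.12, 8.73, 7.73 and 7.63 in iPSC and 11.20 and 11.29 in NSC. Sall4, a zinc finger partner of Oct4, was higher by 4.33 (SE 0.13) while Sall3 was lower by -2.89 (SE 0.13), and Fabp3, the heart fatty acid binding protein, was higher by 2.72 (SE 0.12) while Fabp7 was lower. Mycn read 9.94, 10.03, 9.63 and 9.04 in iPSC and 7.54 and 7.93 in NSC, a difference of 1.92 (SE 0.16). Myc read 8.89, 8.69, 9.50 and 9.37 against 10.32 and 10.04, a difference of -1.07 (SE 0.14, adjusted p = 8.46e-05) that was not called without the first NSC array (-0.93) or for fibroblast iPSC alone (-0.74). The other opposite pairs were Pou5f1 with Pou3f3 (-2.35), Otx2 (1.40) with Otx1 (-2.08), and Tet1 (2.37) with Tet3 (-1.79). Otx2 was not called without the second NSC array (0.87) or for fibroblast iPSC alone (0.78).

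The other pairs were not opposite, among them the SoxB1 factors. Sox2, Sox3 and Sox1 differed by -0.28, -0.41 and -0.27, none of them called. Each was lower on every iPSC array than on both NSC arrays. Each was also lower at adjusted p alone, as were 30.5% of all bright genes, so such small differences were common. For Sox1 the signal was also much the same in GFP-negative astrocytes (mean 8.13) as in NSC (mean 8.26), so it is a weak guide to the cell type. Some families went 1 way: Lin28a (9.78-fold) and Lin28b (2.83-fold), which block let-7 processing, the glucose transporters Slc2a3 (10.7-fold) and Slc2a1 (4.37-fold), and the de novo methyltransferases Dnmt3b (18.2-fold) and Dnmt3a (2.40-fold) were all called higher. Dnmt3a was not called for astrocyte iPSC alone (0.95 on the log2 scale). Pou3f2 had probe sets that disagreed in size, at -0.98 on the brightest and -2.65 on another.

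Chromatin genes leaned to the pluripotent side. Of 23 DNA methylation and Polycomb genes, 12 were higher in iPSC (52.2%) and 2 lower (8.7%), with a median of 1.01. Over all genes 4.77% were higher and 7.47% lower. Dnmt3l, the catalytically inactive cofactor of the de novo enzymes, read 10.39, 10.20, 10.43 and 10.39 in iPSC and 5.78 and 5.84 in NSC, a difference of 4.54 (SE 0.08, adjusted p = 3.72e-11). Tet1, which oxidises 5-methylcytosine, read 11.11, 10.80, 10.98 and 11.09 against 8.53 and 8.72. Bmi1, a Polycomb subunit that NSC need for self-renewal, read 6.88, 6.75, 6.63 and 6.95 against 9.12 and 9.26, a difference of -2.39 (SE 0.13, adjusted p = 6.28e-08). The Polycomb reader Cbx7 was higher by 2.03 (SE 0.07), whereas its relative Cbx2 had an interval of -0.17 to 0.19. Ezh2, the methyltransferase linked to dividing cells, was close in both (-0.26, interval -0.43 to -0.09), and its relative Ezh1 was higher by 1.27 (SE 0.09).

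The list medians of signalling genes differed in direction by pathway. In the LIF and STAT3 list 3 of 10 were higher in iPSC and none lower, with a median of 0.53. Over all genes 4.77% were higher and 7.47% lower. Pim1, a kinase gene induced by STAT3, read 10.56, 10.11, 10.45 and 10.36 in iPSC and 8.36 and 8.03 in NSC, a difference of 2.17 (SE 0.14, adjusted p = 2.43e-07). Bcl3, a nuclear cofactor of NF-kappaB, differed by 2.03 (SE 0.13) and the feedback inhibitor Socs3 by 1.51 (SE 0.20), or 0.79 on another probe set. Stat3 itself was the lowest of the list at -0.51 and was not called. Against astrocytes the list ran the other way, with 2 of the 10 higher in iPSC, 5 lower and a median of -0.49. Pim1 and Bcl3 were higher in iPSC than in astrocytes by 1.43 and 1.64, and Socs3 was lower by -1.75. Over all genes, 8.99% were higher in iPSC than in astrocytes. In the FGF and ERK feedback list 3 of 13 (23.1%) were lower and 1 (7.69%) higher (median -0.44), the last near the share of all genes. Spry4, an inhibitor of receptor tyrosine kinase signals, read 8.64, 8.57, 9.54 and 9.51 in iPSC and 11.06 and 10.63 in NSC, a difference of -1.78 (SE 0.19, adjusted p = 1.44e-05). Its relative Spry1 differed by -1.72 (SE 0.15) and the ETS factor Etv1 by -1.44 (SE 0.09). The higher gene was Fos, an immediate early gene, at 1.55 (SE 0.42), but its NSC arrays read 8.88 and 6.89, and it was not called without the second NSC array (0.56).

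In the Notch list 6 of 14 were lower in iPSC and none was higher, with a median of -0.35. Over all genes 7.47% were lower and 4.77% higher. The receptor Notch1 read 8.16, 8.30, 8.17 and 8.14 in iPSC and 9.61 and 9.73 in NSC, a difference of -1.48 (SE 0.09, adjusted p = 1.72e-07). The ligand Dll1 differed by -1.58 (SE 0.11), the fringe glycosyltransferase Lfng by -2.11 (SE 0.16), and the target and feedback gene Nrarp by -1.59 (SE 0.07). The lower genes thus included a receptor, a ligand, a modifier and a target, while 8 of the 14 were not called. At adjusted p alone, 7 of the 14 were lower and 3 higher, and another receptor, Notch3, stood highest at 0.84.

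Markers of other cells moved with the comparison. Of 19 genes of fibroblasts, the kind of cell used as feeders, 12 were higher in iPSC and none lower (median 1.17), and 19 of 19 lay above 0. Over all genes 4.77% were higher and 7.47% lower. Their summed intensity was 5613.7 and 9979.5 in astrocyte iPSC, 5085.0 and 4906.9 in fibroblast iPSC and 2013.6 and 2151.3 in NSC. The second astrocyte iPSC array stood highest, for example for Dcn (decorin), which read 10.48, 11.26, 10.03 and 9.92 in iPSC and 5.99 and 6.63 in NSC, and for the collagen gene Col1a2, at 8.62, 9.66, 8.76 and 8.67 against 6.98 and 7.24. That array was also the highest of the 4 for Ccnd2 and Cdh2 and the lowest for Utf1. Without it 961 genes were higher and 1487 lower, and 11 feeder genes were higher. The part of feeder RNA in the other iPSC values was not tested.

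The NSC arrays differed in markers of blood and choroid plexus. Hbb-y, an embryonic globin, read 10.68 on the first NSC array and 8.13 on the second, against 5.12 to 5.39 in iPSC, and was lower in iPSC by -4.12 (SE 0.49, adjusted p = 2.73e-05). Hba-x, another embryonic globin, and Ttr (transthyretin), made by the choroid plexus, were called lower (-1.04 and -1.74) only with the first NSC array, and stood at -0.52 and -0.60 without it. Of 8 erythroid genes 2 were lower in iPSC and none higher, with a summed intensity of 2155.7 and 694.6 on the NSC arrays and 456.0 to 491.7 in iPSC. Over all genes 7.47% were lower and 4.77% higher. The erythroid factors Gata1 and Klf1 were dim on the NSC arrays, at 6.20 and 6.10 and at 5.77 and 5.78. Of 8 choroid plexus genes 1 was lower and 2 (Folr1 and Otx2) higher, with sums of 940.7 and 585.3 in NSC and 1088.8 to 1592.8 in iPSC. The chloride channel gene Clic6 stayed between 5.24 and 5.71 on the 6 arrays.

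Of 12 endothelial and pericyte genes 1, Flt1, was higher in iPSC (8.33%), near the 4.77% of all genes. For fibroblast iPSC alone Flt1 stood at 0.68 and was not called, which left 0 genes of the list higher. Cdh5 (VE-cadherin) read 6.08 to 6.67 in iPSC and 5.97 and 6.22 in NSC. The endothelial sums were 965.3 to 1125.4 in iPSC and 806.5 and 872.7 in NSC. Of 15 microglia and macrophage genes 3 were higher and none lower, with sums of 1473.9 to 1679.3 against 958.0 and 932.4. Laptm5, a lysosomal protein, read 9.32, 8.50, 8.84 and 8.77 in iPSC and 6.32 and 6.50 in NSC, whereas Itgam, the myeloid integrin, read 5.66, 5.57, 5.96 and 5.74 against 5.46 and 5.32. Cd68 differed by 1.29 (SE 0.25) and Lyz2 by 1.20 (SE 0.31). Lyz2 was not called without the second NSC array (0.92) or the second astrocyte iPSC array (0.90). The part of such cells in the comparison was not tested.

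Pooling the iPSC arrays joined 2 lines that differed in 148 genes (0.742%), 92 higher and 56 lower in astrocyte iPSC. Each line alone gave similar numbers against NSC, with 1002 higher and 1498 lower for astrocyte iPSC and 923 and 1486 for fibroblast iPSC. These 2 comparisons share the NSC arrays. Tdrd12, a germline Tudor protein, read 9.44 and 9.29 in astrocyte iPSC, 6.43 and 6.23 in fibroblast iPSC and 5.32 on both NSC arrays. Zfp42 (Rex1), a naive pluripotency marker, read 10.21 and 10.38, 8.45 and 8.21, and 5.08 and 5.13 in the same order. Bmp4 ran the other way, at 8.71 and 8.76 in astrocyte iPSC, 9.97 and 9.96 in fibroblast iPSC, and 6.35 and 5.73 in NSC. For these 3 genes both lines stood above NSC while differing from each other.

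**Figure D5:**
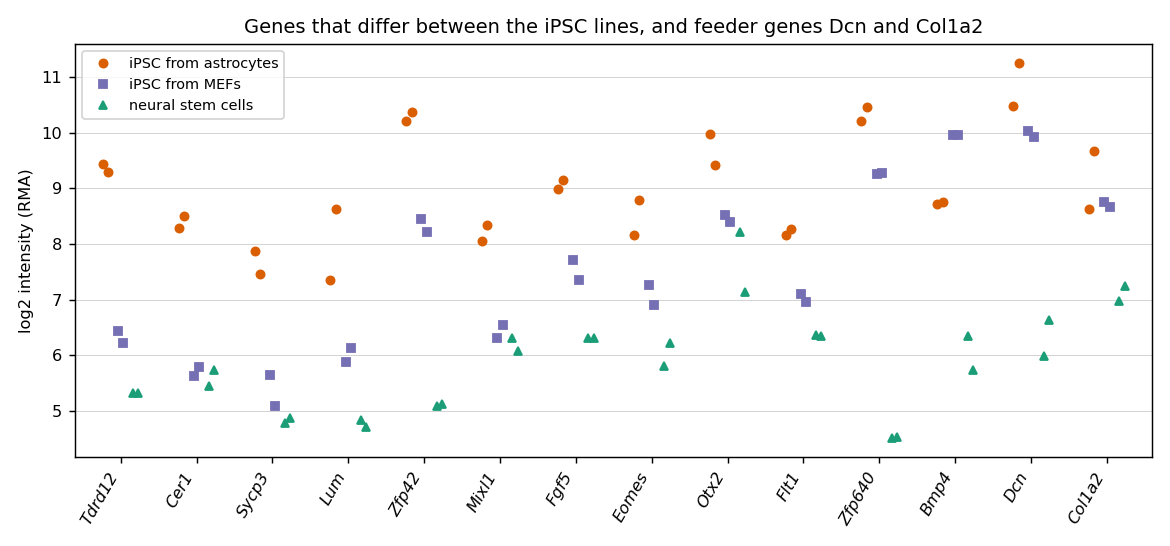
Log2 RMA intensity (y axis) on each array of 12 listed genes that differed between the iPSC lines, and of the fibroblast genes Dcn and Col1a2; circles are astrocyte iPSC, squares fibroblast iPSC and triangles NSC (n = 2 each). Cer1 and Mixl1 of fibroblast iPSC lie at the level of NSC, while Tdrd12, Zfp42 and Bmp4 of both lines lie above NSC.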

How the data were processed

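The authors deposited gene expression intensity values of 12 Affymetrix Mouse Gene 1.0 ST arrays, processed with RMA per the submitters' processing notes; the linear scale was read from the values (20.2 to 15436), and the RMA version was not given in the sources used here. RMA adjusts background and equalises array distributions, so total RNA differences are lost and changes of dim genes are understated. Of 28853 probe sets, 21789 had 1 gene symbol and 1621 had several. The other 5443 are unnamed here, and only those with 1 symbol were used. For the 999 genes with more than 1 probe set the one with the highest mean was kept, giving 19938 genes. The model, run in limma 3.58.1 (R 4.3.3) on log2 values, gave each of 5 groups a mean over all 12 arrays and took the contrast of the mean of both iPSC groups minus NSC. The fit had 7 residual degrees of freedom and 10.91 after moderation. The pipeline was tested on simulated data. Fits without 1 NSC array assume that the other varies like the remaining groups.

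The members and the 25 gene lists (513 measured genes) were chosen with earlier results of these data known. Named genes were the 10 highest and 10 lowest called genes (predicted and clone names left out), the 4 largest changes of each list, the 3 brightest members of each proliferation list, the genes of the family pairs, Sox1 and the delivered factors, the markers, and up to 6 list genes that differed between lines. The 10 highest and 10 lowest were taken only from genes whose iPSC and NSC arrays did not overlap. Rb1, Rbl1, Rbl2, E2f4, Cdkn1b, Ccng2, Sesn2, Fut9, Stat3 and Gfap fall outside that rule and were chosen after their values were seen. Same-numbered arrays of different groups were checked for pairing: 11 of 21 pairs had a correlation of deviations above 0.1 (range -0.097 to 0.41). In groups of 2 arrays the deviations mirror each other, so pairs between such groups repeat the same value. What the shared numbers stand for was not tested. The main fit did not pair the arrays, and a fit with the number as a block is given below. Promoter sequences are from RefSeq (GRCm38.p6).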

Additional observations from a re-analysis of the deposited data

Results flagged for a closer look

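Among 160 named genes, 4 had 1 iPSC array far from the other 3, where chance flags about 1 in 20 groups. The gap of that array, as a share of the range over the 4 arrays, was 0.985 for Plk1 (second astrocyte iPSC array low), 0.885 for Ccng1 and 0.867 for Col1a2 (the same array high), and 0.851 for Lyz2 (first astrocyte iPSC array low). The ranges of Plk1 and Ccng1 were only 0.22 and 0.21 on the log2 scale, against 1.04 for Col1a2 and 1.37 for Lyz2.

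Differences between the iPSC lines, tested in the same limma fit, were called for 12 named genes, beside 148 of all genes (0.742%). Of the 12, Cer1, Tdrd12, Sycp3, Lum, Zfp42 and Mixl1 were named in part because they differed between the lines, so the count itself shows nothing. As log2 of astrocyte iPSC minus fibroblast iPSC, 11 were positive. Tdrd12 stood at 3.04 (adjusted p = 2.14e-08), Cer1 at 2.69 (adjusted p = 6.41e-07) and the meiosis gene Sycp3 at 2.30 (adjusted p = 2.49e-05). The proteoglycan gene Lum, a member of the feeder list, stood at 1.99 (adjusted p = 0.0023), with 7.36 and 8.63 on the astrocyte iPSC arrays. Zfp42 differed by 1.96 (adjusted p = 5.14e-05), and the mesendoderm genes Mixl1 and Eomes by 1.76 (adjusted p = 4.08e-05) and 1.39 (adjusted p = 0.00195). Fgf5 differed by 1.53 (adjusted p = 0.000199), Otx2 by 1.23 (adjusted p = 0.0294), Flt1 by 1.19 (adjusted p = 7.9e-05) and Zfp640 by 1.08 (adjusted p = 4.08e-05). Bmp4 alone was negative, at -1.23 (adjusted p = 0.0017). Each line had only 2 arrays, and these genes were selected for differing on them, so agreement between the arrays adds no support.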

How the results depend on the processing

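Leaving out each array in turn gave 920 to 994 genes higher and 1349 to 1611 lower in iPSC, and 4519 to 4818 bright genes with an interval within 1. It gave 1182 to 1367 genes higher in NSC and 1709 to 1877 higher in iPSC than in astrocytes, and 135 to 176 between the iPSC lines. With the replicate block the counts were again 951 and 1489, and the block changed no other call count by more than 1.5 times; the shared numbers alone do not establish a paired design. Without the fold limit 4844 genes were higher and 4358 lower in iPSC, 4508 higher in NSC and 5288 higher in iPSC than in astrocytes, and 1150 differed between the lines. With dim genes left out, so that fewer genes were tested, 69 differed between the lines. The bright genes within the interval numbered 2352 with a limit of 0.5 and 2465 with brightness set 2 above the median. Of 4610 values of named genes under the alternatives, 4506 kept direction and side of the threshold, 47 lost their call, 57 gained one and 0 changed direction. The calls of Cer1, Tdrd12, Sycp3, Otx2, Mixl1, Fos and Lyz2 were lost when the iPSC lines were treated as 1 group of 4 on the 6 arrays, and likewise as a random block. Of 1440 list counts, 1380 stayed within 1.5 times. Fits on only the first or second iPSC arrays were chosen after seeing the data, because array medians differed by replicate number, and gave 999 and 1448 or 898 and 1498 genes.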
